A study of Canis lupus familiaris with 5 samples.

Results

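The cardiac extracellular matrix outside collagens I and III was examined through 58 listed genes, which cover the other collagens, the basement membrane, proteoglycans, elastic fibres, matricellular and adhesive glycoproteins and the enzymes and chaperones that process collagen. A listed gene was taken from the array when a probe set (a group of short probes against the same transcript) was annotated with its symbol alone. This gave 36 of the 58 genes, on 48 probe sets, out of 2416 genes on the array. The rule uses no measured value, though the list was drawn up with earlier results of these data known. The list is not wholly nonfibrillar, since type V collagen, represented by COL5A2, itself forms fibrils together with collagen I.

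The RNA came from dog myocardium, with 2 arrays of control dogs (control 1a and 2a) and 3 of dogs with congestive heart failure (failing 1a, 1b and 2a). Each of 4 arrays carried a pool of RNA from 3 dogs, combined ahead of cRNA synthesis, and the description of control 1a gives no pool. Breed, age, treatment, the region of the heart and the way in which failure arose are not given in the sources used here. Nothing states whether failing 1a and 1b are separate pools or repeats of 1 pool, and the labels do not say which dogs entered which pool. P-values therefore reflect the spread between these 5 arrays alone, and that spread may be technical.

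The matrix of the heart is a network around and between the muscle cells. Basement membranes built from laminins, type IV collagen and nidogen surround each cardiomyocyte and each vessel. Collagen fibrils, whose spacing and diameter are tuned by small leucine-rich proteoglycans, carry tension, and elastic fibres of elastin on a fibrillin scaffold return stretch. Matricellular proteins such as SPARC and the thrombospondins bind matrix and cells without bearing load, and are known to be made in larger amounts by fibroblasts of the injured or overloaded heart. In tissue RNA, more cells of a type and more RNA per cell cannot be told apart.

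Values were linear intensities, with a trimmed mean of 800 on every array and with 34.7% to 39.9% of probe sets below 0. The probe sets are annotated to human genes, and a level is read only against the same probe set on another array. Failing 2a stood apart from the other arrays, with correlations across all tested genes of 0.561 to 0.581, against 0.709 to 0.820 among the other 4. The RNA carried markers of heart muscle, with MYL2, MYL3, TNNC1, MB and MYH6 bright on all arrays (3492 or more). Of the 12 listed cardiomyocyte markers 8 were on the array and 7 were bright enough to be tested, MYH7 being too dim. The GAPDH control probe sets at the 3′ and 5′ ends gave a ratio (3′ over 5′, a measure of RNA length) that was 2.24 ± 0.13 (SD, n = 2) on the control arrays and 1.39 ± 0.06 (n = 3) on the failing arrays. The part of this ratio in the differences below was not tested.

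Most of these genes were dim. Of the 48 probe sets, 20 (41.7%) stood at or above a floor of 20 on every array, against 41.8% of all probe sets, and 8 lay below that floor on all 5. A gene was tested when a probe set of its own reached the median level of the array, a mean log2 intensity of 7.13 (140.1 on the linear scale). By this filter 21 of the 36 genes (58.3%) were tested, against 60% of all genes, and 3 of the 21 had an array below the floor. The number of arrays limits the precision of every comparison.

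None of the 21 tested matrix genes passed the threshold between failing and control myocardium. Limma with Benjamini-Hochberg adjustment over 1449 genes called 0 of 21 (adjusted p between 0.301 and 0.996), and it called 0.069% of all genes, which is 1 gene. At an unadjusted p under 0.05, 4 of the 21 were higher in failing myocardium (19.0%, against 6.9% of all genes), namely SPARC, PRELP, FN1 and FBN1, and 0 were lower (3.59% of all genes). FN1 reached the filter only through its failing arrays, and with equal weight for the control and failing means in the filter the count was 3 of 20 (6.26% of all genes). The count also depended on scaling, at 3 of 21 after quantile normalization (5.45%) and 1 of 21 after 75th percentile scaling (4.15%). With failing 1a and 1b averaged it was 2 of 20 (3.39%), and with the replicate number as a block 5 of 21 (10.5%). With no filter 3 of 36 were higher (5.3% of all genes) and 1 lower (3.48%). Without failing 1a, 1b or 2a, 1 of 21 (4.42%), 2 of 21 (3.61%) and 4 of 20 (9.09%) were higher. In the same order 0, 1 and 0 were lower (2.9%, 2.85% and 7.15% of all genes). Of the 21, 13 (61.9%) had a log2 fold change above 0, against 59.6% of all genes. The median log2 fold change of the matrix genes was 0.31 and that of all genes 0.15.

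In 8 of the 21 genes (38.1%) all 3 failing arrays were brighter than both control arrays, against 19.5% of all genes tested. These were COL5A2, COL15A1, COL16A1, PRELP, FBN1, FN1, SPARC and CILP. FN1 and COL5A2 had control means below the filter (5.35 and 6.65 in log2) and were tested because of their failing arrays, whereas COL6A2, with a failing mean of 6.83, was tested because of its control arrays. With equal weight for both groups in the filter the count was 7 of 20 (18.9% of all genes), and with no filter 8 of 36 (13.2%). All failing arrays were dimmer in 0 of the 21, against 11.8% of all genes, in 0 of 20 with the equally weighted filter (12.2%) and in 2 of 36 with no filter (9.11%). The upward count depended on how the arrays were scaled. It was 5 of 21 after quantile normalization (14.6% of all genes), and 4 of 21 after 75th percentile scaling of the arrays (13.1%), where COL15A1, PRELP, FN1 and SPARC were left. The downward count stayed at 0 of 21 under both, against 14.4% and 16.7% of all genes. These scalings moved the all-gene median log2 fold change from 0.15 to −0.0016 and −0.05. The median of the matrix genes lay 0.15, 0.26 and 0.16 above that of all genes under the deposited scale, the quantile and the percentile scaling. Without failing 2a the upward count was 7 of 20 (28.6% of all genes) and the downward count 1 of 20 (20.7%), and with failing 1a and 1b averaged it was 8 of 20 (24.2%) beside 4 of 20 downward (16.1%). Without control 1a it was 10 of 22 (32.4% of all genes) beside 2 downward (19.5%), and without control 2a 9 of 22 (33.4%) beside 2 downward (18.7%).

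**Figure D1:**
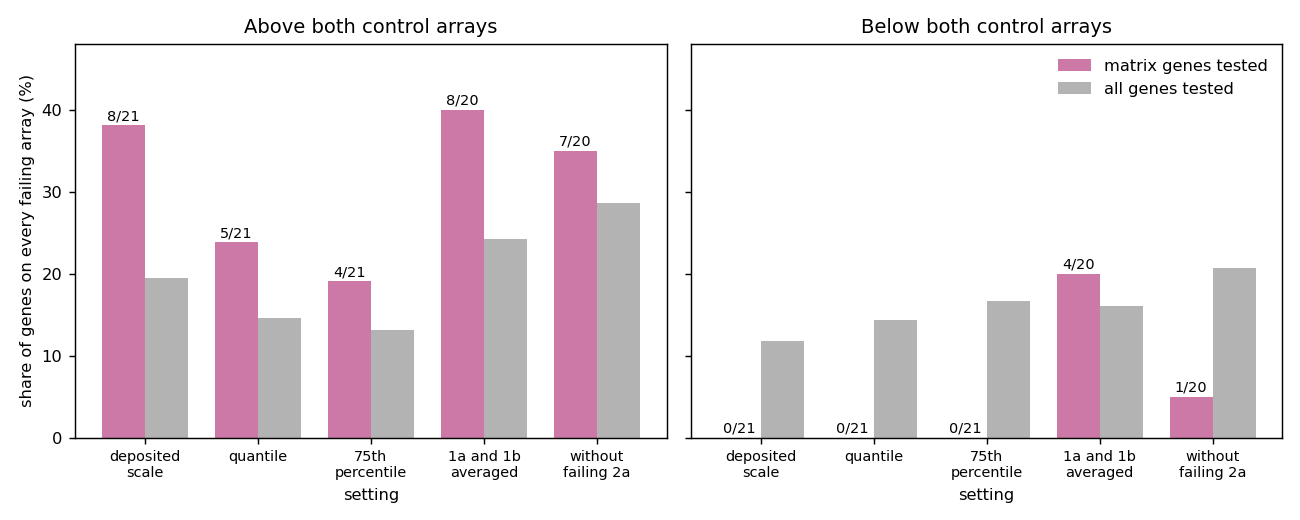
Share of genes (%) whose failing arrays all lie above (left) or all below (right) both control arrays, for the tested matrix genes (pink, with the count over the number tested) and all tested genes (grey), under 5 settings. The pink bar falls from 8 of 21 on the deposited scale to 4 of 21 after 75th percentile scaling, and lies above the grey bar in each of the 5 settings on the left.

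Markers of other cell types also differed between the groups of arrays. For comparison, 19.5% of all tested genes were brighter and 11.8% dimmer on every failing array. Of the 6 tested endothelial markers, 4 were brighter on every failing array and 0 dimmer, and their summed intensity was 4994 to 5941 on the control arrays and 6895 to 12929 on the failing arrays. ENG was the largest part of the sum on every array. It read 3090.2 and 3200.5 in control against 2938, 2152 and 6162 on failing 1a, 1b and 2a. AQP1 was also highest on failing 2a, at 4270. CDH5, among the 4 brighter markers, had a control mean below the filter (6.11 in log2). Of the 7 tested cardiomyocyte markers, 3 were dimmer on every failing array and 1 brighter, with sums of 157905 to 166615 in control and 131814 to 149802 in failing myocardium. The 6 tested fibroblast markers gave overlapping sums, 12363 to 18266 and 14148 to 21866, with 2 brighter on every failing array, both of them collagen genes. Most of each sum came from S100A4, and VIM read below 0 on control 1a and failing 2a, so the sums say little about the other markers. The 4 tested smooth muscle and pericyte markers summed to 31521 to 55141 and 62246 to 87049, most of it from desmin, which cardiomyocytes also make. Of these 4, 2 were brighter and 1 dimmer on every failing array, the dimmer being TAGLN, transgelin, at 3046 and 3048 in control against 1710, 1888 and 1068, while CNN1 and PDGFRB were below the floor on all arrays. Of 3 tested adipocyte markers 2 were dimmer on every failing array and 0 brighter, of 4 tested skeletal muscle markers 2 were brighter, and of the 2 tested hemoglobin genes 1 was brighter. Of the 5 leukocyte and macrophage markers on the array 0 were bright enough to be tested, and CD163, ITGAM and AIF1 were below the floor on all arrays. The part of these cells in the matrix differences was not tested.

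**Figure D2:**
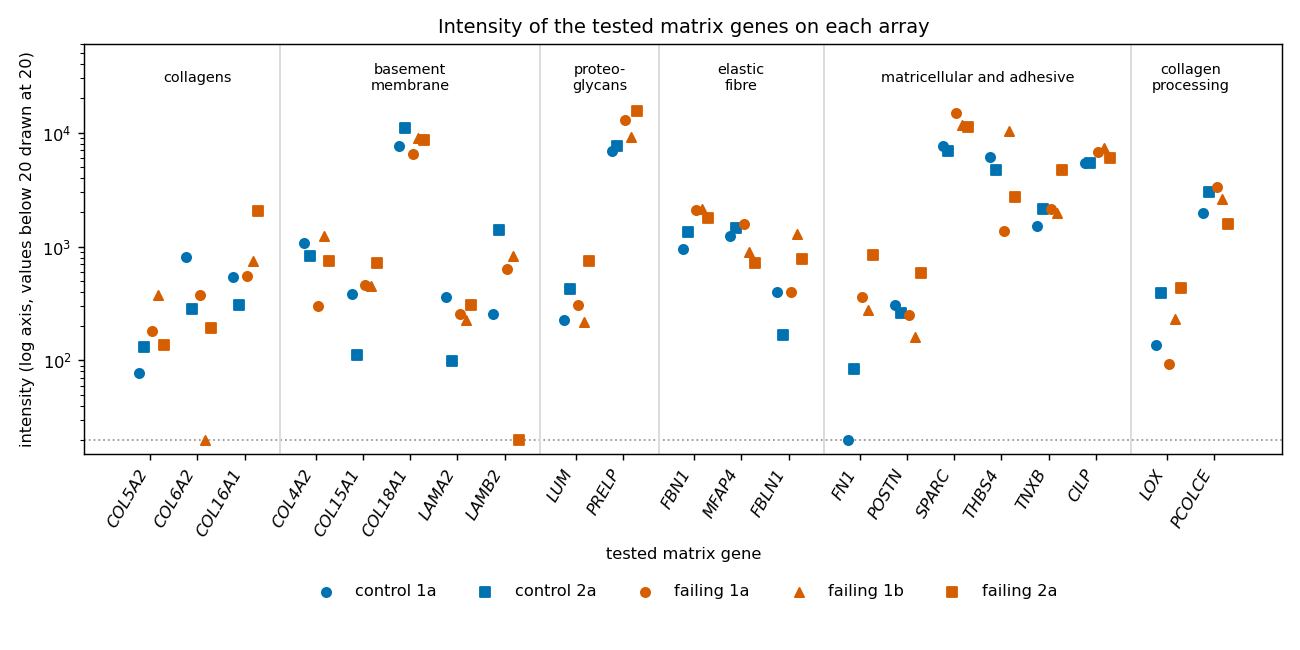
Intensity (log axis) of the 21 tested matrix genes on each array, grouped by role, with control arrays in blue and failing arrays in orange and values below 20 drawn at 20. SPARC, PRELP and FBN1 have all orange symbols above both blue ones, while LUM, POSTN, LOX and PCOLCE have them mixed. Heights of different genes are not comparable.

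The matricellular and adhesive glycoproteins included SPARC, the matrix gene with the smallest p-value. Of 8 such genes on the array 6 were tested. Of these, 3 (FN1, SPARC and CILP) were brighter on every failing array (19.5% of all genes) and 0 dimmer (11.8%). The median log2 fold change of the 6 was 0.45, against 0.15 for all genes. It was 0.31 over 5 genes with the equally weighted filter, which FN1 did not pass (0.13 for all genes). With no filter it was 0.16 over 8 genes (0.05 for all genes). Without failing 2a that median was 0.19, over 5 genes. SPARC, which binds collagen and assists its assembly outside the cell, had intensities of 7678 and 6943 on control 1a and 2a and of 14966, 11709 and 11251 on failing 1a, 1b and 2a. The dimmest failing array was thus well above the brighter control array. The group means were 7311 ± 519 (SD, n = 2) and 12642 ± 2026 (n = 3). The log2 fold change of SPARC was 0.78 ± 0.20 (SE, limma adjusted p = 0.301), which is 1.72-fold. Over 15 alternative settings its log2 fold change ranged from 0.58 to 0.86 and its adjusted p from 0.142 to 0.763.

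FN1 encodes fibronectin, the adhesive protein that cells deposit early in repair and bind through integrins. Its intensities were −198.9 and 83.3 on control 1a and 2a, and 362.6, 276.3 and 841.4 on failing 1a, 1b and 2a. Failing arrays were all above control, but 1 control value lay below the floor, so no fold is given and the log2 fold change of 3.43 ± 1.20 (SE, limma adjusted p = 0.442) holds for floored data only. FN1 no longer passed the filter without failing 1a, without failing 2a, or when the control and failing means had equal weight in the filter.

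CILP, a matrix protein first known from cartilage and also made by cardiac fibroblasts, had 5393 and 5422 in control and 6815, 7347 and 6011 on failing 1a, 1b and 2a. The difference was small but without overlap on the deposited scale, 1.24-fold and 0.31 ± 0.19 in log2 (SE, limma adjusted p = 0.620). Its other probe sets did not share it. In the brighter of them failing 2a, at −547.7, was the lowest array, and the remaining one was below the floor throughout.

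TNXB, tenascin-X, which bridges collagen fibrils, was highest on failing 2a. Its intensities were 1510 and 2155 in control and 2129, 1989 and 4665 on failing 1a, 1b and 2a, so failing 1a and 1b lay between the control arrays. The log2 fold change was 0.58 ± 0.46 (SE, limma adjusted p = 0.734), and 0.19 without failing 2a. A pair of further probe sets, annotated to both TNXB and CYP21A2 and therefore not used, gave 3647 and 2778 in control against 2200, 2871 and 1505, and 1065 and 1850 against 1021, 763.8 and 1593.

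POSTN, periostin, a fibroblast product well known from the infarcted heart, gave 306.0 and 262.3 in control and 250.2, 162.0 and 581.2 on failing 1a, 1b and 2a. Failing 1a and 1b were below both control arrays and failing 2a was above them. Its log2 fold change was 0.02 with a 95% interval of −2.15 to 2.18, and below 0 under both other scalings, so neither a rise nor a fall was detectable. THBS4, thrombospondin-4, spread widely within the failing group. It had 6170 and 4652 in control and 1378, 10259 and 2743 on failing 1a, 1b and 2a, which placed failing 1a and 1b at opposite ends of the 5 arrays. Its log2 fold change was −0.66 ± 0.84 (SE, limma adjusted p = 0.819), near 0 without failing 1a (−0.014) and −1.46 without failing 1b.

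Among the elastic fibre genes, 3 of 6 on the array were tested, and FBN1 alone was brighter on every failing array (19.5% of all genes). The median log2 fold change was 0.81 over these 3 genes. With no filter it was 0.20 over all 6, and FBLN2 was then dimmer on every failing array (9.11% of all genes). FBN1 encodes fibrillin-1, the microfibril scaffold that also holds latent TGF-beta. It had 955.8 and 1338 on control 1a and 2a and 2073, 2126 and 1773 on failing 1a, 1b and 2a. The failing values lay close together and above both control values, 1.75-fold on average, with a log2 fold change of 0.81 ± 0.31 (SE, limma adjusted p = 0.457). Without failing 2a it was 0.89, and after 75th percentile scaling it stayed above 0 while the groups overlapped.

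FBLN1, fibulin-1, a glycoprotein of elastic fibres and vessel walls, had 402.4 and 167.0 in control and 396.6, 1283 and 777.7 on failing 1a, 1b and 2a. Failing 1a was just below control 1a, so the groups overlapped despite a 2.83-fold difference of the means of log2 values (log2 fold change 1.502 ± 0.77 SE, limma adjusted p = 0.557). MFAP4, a microfibril-associated glycoprotein, went the other way in its mean. It had 1238 and 1465 in control against 1584, 901.8 and 720.1, with failing 1a the brightest array of all, and a log2 fold change of −0.42 ± 0.45 (SE, limma adjusted p = 0.799).

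The proteoglycans were represented by PRELP and LUM, the tested pair of 5 genes on the array, with a median log2 fold change of 0.51 (0.17 without failing 2a). PRELP encodes a leucine-rich protein that anchors basement membranes to the underlying collagen. It had 6835 and 7663 on control 1a and 2a and 13003, 9231 and 15519 on failing 1a, 1b and 2a. All failing arrays were brighter, on average 1.70-fold, with a log2 fold change of 0.77 ± 0.26 (SE, limma adjusted p = 0.437). Its other probe sets gave overlapping groups. The brighter of them read 1126 and 1785 against 1112, 2109 and 1729, a log2 difference of 0.17, and the dim one 170.1 and 131.2 against −189.6, 92.5 and 700.8. Lumican, LUM, which spaces collagen fibrils, had 225.3 and 421.4 in control and 304.4, 216.9 and 739.9 on failing 1a, 1b and 2a, with a log2 fold change of 0.25 (95% interval −1.84 to 2.34) that was below 0 after quantile normalization.

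The collagens outside the basement membrane had 3 tested genes of 5 on the array, with a median log2 fold change of 1.06 (0.65 without failing 2a). It was −0.19 with failing 1a and 1b averaged, where COL5A2 was no longer tested. COL16A1, a fibril-associated collagen, had 542.9 and 306.0 in control and 547.7, 751.3 and 2058 on failing 1a, 1b and 2a. Failing 1a exceeded control 1a by under 5 units, and failing 2a was 4.85 times the control mean. The log2 fold change was 1.21 ± 0.72 (SE, limma adjusted p = 0.620), and 0.65 without failing 2a. COL5A2, a chain of the type V collagen that nucleates fibrils, was dim, with 78.0 and 129.9 against 181.9, 376.9 and 136.1, so that failing 2a was barely above control 2a (1.06 ± 1.10 SE, limma adjusted p = 0.793). For type VI collagen, which forms beaded filaments beside the muscle basement membrane, the chains did not run together. COL6A2 had 806.6 and 282.7 in control and 378.3, −784.0 and 192.9 in failing myocardium (log2 fold change −2.07 ± 1.55 SE on floored values, limma adjusted p = 0.708). COL6A1 and COL6A3 were too dim to be tested. COL6A1 read 184.9 and 236.0 in control and 45.5, 110.1 and −330.9 in failing myocardium, without overlap. COL6A3 read −166.8 and 223.5 against −88.7, 140.1 and 1209, with failing 2a far above the rest.

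The basement membrane was the best represented group, with 9 genes on the array and 5 tested. COL15A1 alone was brighter on every failing array (19.5% of all genes), and 0 genes were dimmer on all (11.8%). The median log2 fold change was −0.20, or 0.28 without failing 2a, and 0.46 over all 9 genes with no filter. COL15A1 encodes a collagen that links the basement membrane of muscle fibres and capillaries to the surrounding matrix. It had 384.5 and 111.4 on control 1a and 2a and 458.8, 451.6 and 717.0 on failing 1a, 1b and 2a. The spread between the control arrays was wider than the gap between control 1a and the failing arrays, and the log2 fold change was 1.36 ± 0.80 (SE, limma adjusted p = 0.620). It was 0.46 without control 2a and 2.25 without control 1a. The related COL18A1, the precursor of endostatin, had 7586 and 10974 in control against 6439, 8957 and 8647, with overlap (−0.20 ± 0.26 SE, limma adjusted p = 0.821). Another COL18A1 probe set, outside the test of the gene because it was dimmer, read 490.7 and 628.5 against 356.3, 263.8 and 60.6, below control on every failing array (0.322-fold).

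COL4A2, a chain of the type IV collagen network, had 1070 and 828.2 in control and 299.8, 1237 and 739.7 on failing 1a, 1b and 2a, and failing 1a and 1b were the lowest and the highest of the 5 arrays (−0.53 ± 0.70 SE, limma adjusted p = 0.821). Its dimmer probe set was lower on every failing array, at 378.4 and 256.6 against 30.6, −116.4 and 138.2. Of the laminin chains, LAMA2, the muscle chain whose loss causes a congenital muscular dystrophy, had 359.7 and 99.7 against 255.4, 224.9 and 309.6, all failing values between the control values (0.46 ± 0.95 SE, limma adjusted p = 0.887). LAMB2 had 257.0 and 1395 in control and 636.9, 825.5 and −126.7 on failing 1a, 1b and 2a (−1.45 ± 1.89 SE on floored values, limma adjusted p = 0.821). In both, the control arrays lay further apart than the group means.

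Collagen processing had 3 genes on the array. PCOLCE, the enhancer of procollagen C-proteinase, which trims procollagen so that fibrils can form, had 1967 and 3035 in control and 3363, 2606 and 1570 on failing 1a, 1b and 2a. The groups overlapped fully, and the log2 fold change was −0.03 with a 95% interval of −1.07 to 1.01. LOX, lysyl oxidase, which cross-links collagen and elastin, had 136.2 and 388.8 in control against 93.5, 229.1 and 436.2 (−0.13, 95% interval −2.88 to 2.63). SERPINH1, the collagen chaperone HSP47, was too dim to be tested.

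**Figure D3:**
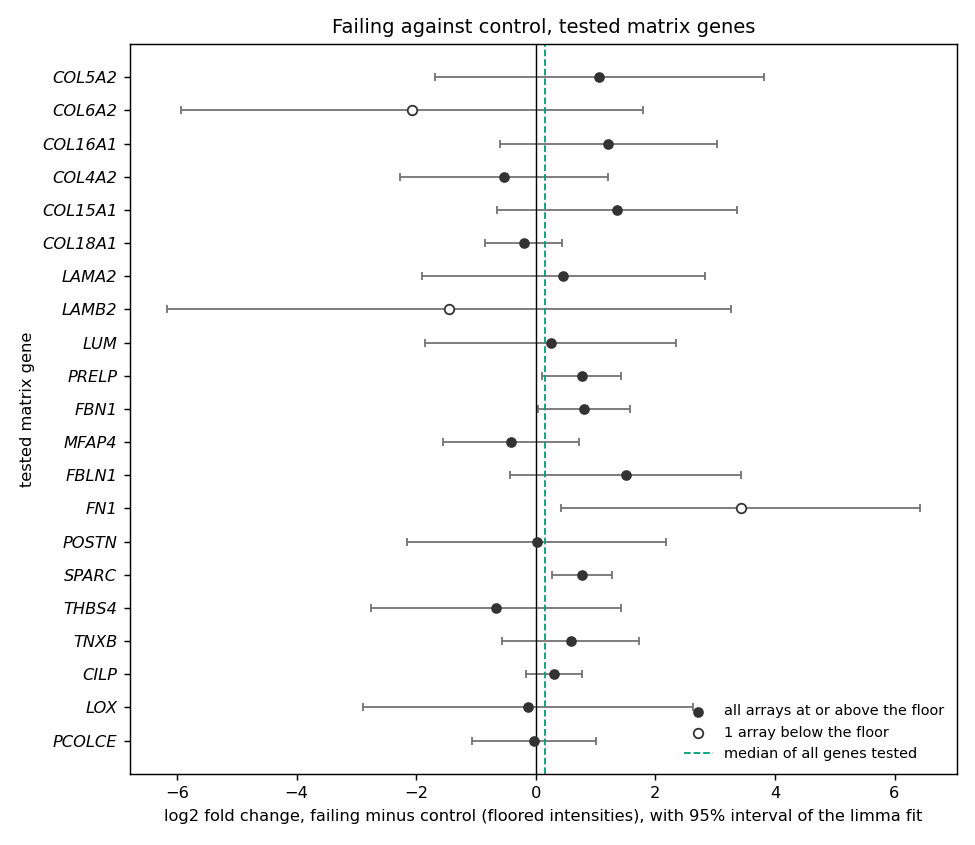
Log2 fold change (failing minus control, floored intensities) of the 21 tested matrix genes with 95% intervals of the limma fit, open symbols marking genes with 1 array below the floor. The intervals of SPARC (0.28 to 1.28), PRELP (0.11 to 1.42), FBN1 (0.04 to 1.58) and FN1 (0.43 to 6.42) do not reach 0 before adjustment, and the dashed line at 0.15 is the median of all tested genes.

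The other 15 genes on the array did not reach the filter, with 1 probe set each. None of these 15 was at or above the floor on every array. NID1, FMOD and TNC, which encode nidogen-1, fibromodulin and tenascin-C, were below it on all 5. In 11 of the 15 the groups overlapped, in 2 all failing arrays were higher and in 2 all were lower, against 8.19% and 13.5% of the 769 untested genes with 1 probe set. Those with overlap included the elastic fibre genes ELN and MFAP5, the laminin genes LAMA4 and LAMB1, the proteoglycan genes VCAN and OMD, and THBS2. ELN, elastin itself, read −117.5 and −235.9 in control and 134.6, −16.9 and −312.8 on failing 1a, 1b and 2a. VCAN, the large proteoglycan versican, read 184.0 and 34.3 against 70.0, −32.2 and −76.7. FBLN2, fibulin-2, read 613.2 and 435.6 in control and −174.4, −3.5 and −1156 in failing myocardium, so its failing arrays were all below both control arrays and all below 0. COL6A1 was the other gene of the 15 with this order. FBLN2 was below the floor on every failing array and COL6A1 on failing 2a, so no fold is given.

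LAMC1 and SERPINH1 had the opposite order. LAMC1, the gamma chain shared by most laminins, read −11466 and −12132 in control and −138.4, 579.6 and −9116 on failing 1a, 1b and 2a, so that only failing 1b was above the floor. SERPINH1 read −1050 and −1041 in control and −459.2, −629.4 and 3563 on failing 1a, 1b and 2a, with only failing 2a above the floor. Each order therefore rests on readings below 0 together with 1 positive array.

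**Figure D4:**
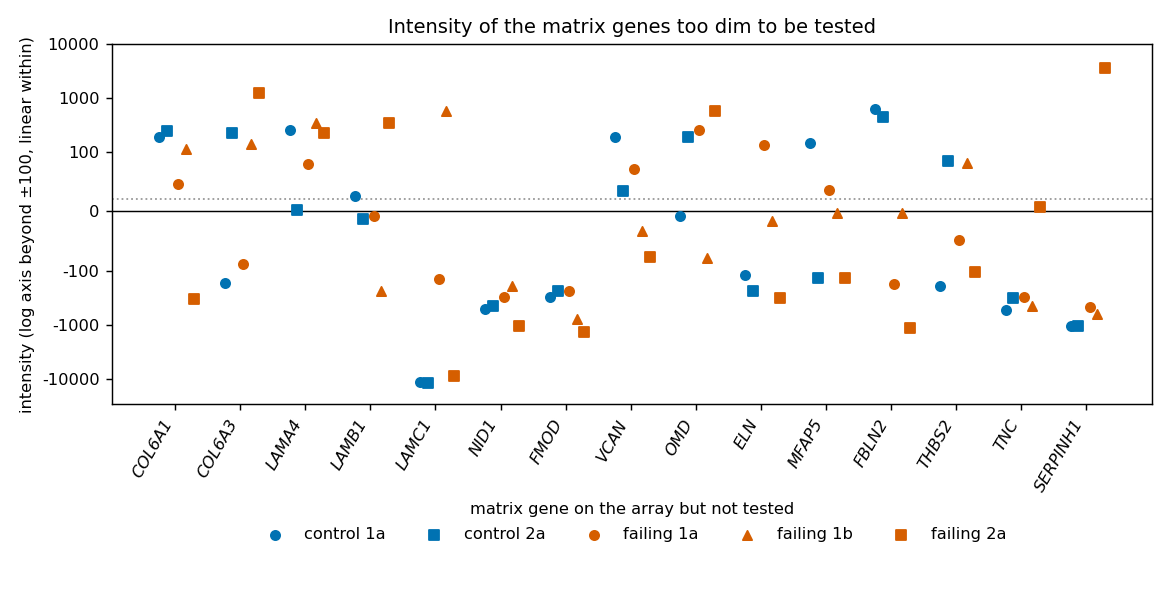
Intensity of the 15 matrix genes on the array that were too dim to be tested, 1 probe set each, on an axis that is linear within ±100 and logarithmic beyond, with control arrays in blue and failing arrays in orange. Most values lie near or below 0, FBLN2 and COL6A1 have all orange symbols below both blue ones, and SERPINH1 reaches 3563 on failing 2a alone.

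Of the 6 genes with several probe sets (COL4A2, COL18A1, LAMB2, PRELP, CILP and THBS4), none had failing arrays above both control arrays on more than 1 probe set. PRELP and CILP each owed that order to the brightest of 3 probe sets. The brightest PRELP, CILP and THBS4 probe sets carry the name ending _r_at, which on these arrays marks sets designed with relaxed rules for probe choice. Those of COL4A2 and COL18A1 end in _f_at, which marks sets that related genes may share.

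Arrays of the same group also differed. The median absolute log2 difference between failing 1a and 1b was 0.48 over the 21 matrix genes and 0.31 over all genes, and between the control arrays it was 0.63 and 0.41. Failing 2a was the highest of the 5 arrays in 8 of the 21 genes (38.1%), and in 44.7% of all genes. The standard errors of the 21 genes ran from 0.19 (CILP) to 1.89 (LAMB2) on the log2 scale.

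The neighbouring parts of the pathway, from lists not trimmed by their values, gave few tested genes. Their counts stand beside the 19.5% of all tested genes that were brighter on every failing array. Of the fibril-forming collagens I, II, III and XI, 3 were tested and 2 were brighter on every failing array, with 0 called. COL3A1 read 232.7 and 365.2 in control and 1560, 1593 and 1343 in failing myocardium, and COL1A2 read 388.1 and 273.6 against 891.7, 892.2 and 621.8. Their log2 fold changes were 2.36 ± 0.43 and 1.28 ± 0.51 (SE, limma adjusted p = 0.244 and 0.472). Of 26 listed matrix receptors 7 were on the array and 3 tested, 2 of them brighter on every failing array. ITGB6, an integrin beta chain, read 489.3 and 570.3 against 916.7, 957.0 and 2079, and SDC2, the proteoglycan receptor syndecan-2, 4309 and 2535 against 638.6, 590.9 and 4230. Of 26 matrix proteases and inhibitors 2 were on the array, TIMP3, an inhibitor of metalloproteinases, at −2645 and −3618 against 2732, 88.3 and 2192, and PLAU, the urokinase protease, at 256.5 and 812.2 against 873.3, 521.9 and 931.4. Of 20 TGF-beta and matrix regulators 6 were on the array and 3 tested. CCN2, a matrix-inducing growth factor, read 3900 and 4172 against 11753, 11968 and 14659 (log2 fold change 1.66 ± 0.19 SE, limma adjusted p = 0.0713), and TGFB3 480.1 and 555.3 against 559.6, 545.8 and 1683. In all 4 lists limma called 0 genes, and 3 passed an unadjusted p under 0.05 (COL3A1, TIMP3 and CCN2). All 3 were brighter in failing myocardium, a direction in which 6.9% of all tested genes passed. TIMP3 was below the floor on both control arrays and reached the filter only through its failing arrays.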

How the data were processed

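The deposited table gives 1 linear intensity for each of 4653 probe sets on 5 arrays. The submitters' software, scaling and background steps are not given in the sources used here, and intensities below 0 have no logarithm. Of the probe sets, 52 array controls were left out, and of the 4601 others 3724 had 1 symbol in the platform annotation, 72 several and 805 none. Columns of other samples numbered 0.

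Intensities were raised to 20 and put on the log2 scale. Probe sets at or above the median of the mean log2 intensity (7.13) were kept, and the brightest represented its gene, giving 1449 genes. Failing and control arrays were compared two-sided in R 4.3.3 with limma 3.58.1 (intensity trend), with Benjamini-Hochberg adjustment at 0.05, after the code was tested on simulated data. With 2 against 3 arrays an exact permutation test, two-sided by doubling the smaller one-sided p, cannot go below 0.2, so none was run on members. Folds are 2 to the power of the log2 difference and are given only without floored arrays. All tested members are named, with values on every array for every tested member. The members and lists were chosen with earlier results of these data known. Alternatives covered the scale, floor, filter, probe set choice, trend, a replicate block and left-out arrays. No sequence of the probes was used here. All 36 genes have a dog gene of the same symbol in RefSeq (UU_Cfam_GSD_1.0), whose coordinates are not given because no build belongs to the table.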

Additional observations from a re-analysis of the deposited data

Results flagged for a closer look

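Some probe sets of the matrix genes that were too dim to be tested, or not used for their gene, read above the filter level on a failing array while both control arrays were below the floor of 20. SERPINH1 read 3563 on failing 2a, where the higher control array was at −1041. LAMC1 read 579.6 on failing 1b, against −11466 on the higher control array, and was below the floor on failing 1a and 2a. A further LAMB2 probe set read 312.5 on failing 2a, against −70.0 on the higher control array, with −756.0 and −818.2 on failing 1a and 1b. In each of the 3, 1 failing array alone was above the floor.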

How the results depend on the processing

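The number of matrix genes called was 0 under all 15 alternatives. Of the 21 genes, 12 kept their direction in every alternative that tested them: COL5A2, COL6A2, COL15A1, COL16A1, PRELP, FBN1, FBLN1, MFAP4, FN1, SPARC, TNXB and THBS4, though the size of several rested on 1 array, with ranges over left-out arrays of 0.46 to 2.25 for COL15A1, 0.87 to 2.14 for FBLN1, −2.94 to −0.82 for COL6A2 and −1.46 to −0.014 for THBS4. Genes called over the whole array numbered 1 with the replicate block as without it, 2 with 75th percentile scaling, 0 with an asinh scale, with averaged probe sets or with failing 1a and 1b averaged, 5 with no filter and 3 without the intensity trend. Leaving out an array gave 0 (failing 1a or failing 1b), 3 (control 2a) or 13 (failing 2a) at the extremes, and the genes above and below control on every failing array ran from 366 to 487 and from 219 to 299. The matrix genes above control numbered 5 with quantile normalization and 4 with 75th percentile scaling. Those below numbered 2 with no filter (COL6A1 and FBLN2, 9.11% of all genes), 1 with averaged probe sets (COL18A1, 11.3%), 4 with failing 1a and 1b averaged (16.1%), and 1 to 2 when an array was left out (15.2% to 20.7%). The log2 fold change of CILP was −0.62 with averaged probe sets. That of LOX was 0.13 with 1a and 1b averaged and 0.13 with the replicate block, LUM −0.0037 after quantile normalization, and POSTN −0.24 after quantile normalization and −0.19 with 75th percentile scaling. Leaving out an array gave log2 fold changes from −0.47 to 0.064 for COL18A1, −0.999 to 0.023 for COL4A2, −0.46 to 1.39 for LAMA2, −2.67 to 0.28 for LAMB2, −0.88 to 0.63 for LOX, −0.26 to 0.70 for LUM, −0.34 to 0.29 for PCOLCE and −0.49 to 0.43 for POSTN. The cause of these changes was not tested. Without a control array, the lone control array is assumed to vary like the failing arrays. Control and failing arrays share the numbers 1 and 2 in their titles, and the main fit did not take the numbers as pairs. The differences between numbers correlated at 0.0119 across genes. This value cannot decide on pairing, since each group gave 1 difference and that of the failing group includes failing 2a, which stood apart.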
